A study of Rattus norvegicus with 8 samples.

Results

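Voltage-gated sodium channels open when a neuron depolarises and carry the inward current of the action potential. Each channel has a large alpha subunit, which forms the pore and the voltage sensor, and smaller beta subunits, which change gating, bring channels to the membrane and act as cell adhesion molecules. In adult spinal cord they are placed mainly at axon initial segments and nodes of Ranvier, and several are also made by glia. The set was defined by 7 symbols, 4 alpha subunits (Scn1a, Scn2a, Scn3a and Scn9a) and 3 beta subunits (Scn2b, Scn3b and Scn4b). A gene was taken from probe sets that the platform annotation ties to exactly 1 symbol, and 6 of the 7 were found among 18166 tested genes, each with 1 probe set. Scn3a, the alpha subunit best known from embryonic neurons, was not analysed here.

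Signal was measured on 8 Rat Gene 2.0 ST arrays of thoracic spinal cord. The SCI group held 4 arrays of rats whose thoracic cord had been injured, and the sham group held 4 arrays from rats with a laminectomy without injury. All rats were male, of the Long Evans strain, about 175 days old and 400 g in weight. They ate chow with 17% fat during 4 weeks of recovery and then a diet with 40% fat. A total of 8 weeks is given for both groups. The piece of cord is given as thoracic segments 10 to 11 by one label and 11 to 12 by another, and how far it lay from the lesion is not stated in these sources. Values are log2 signals from RMA, a method that corrects background, aligns arrays and summarises the probes of a probe set. Array medians lay between 3.73 and 3.81, and 2572 genes, 14.2% of those tested, differed between SCI and sham at an adjusted p under 0.05. Of these 1282 were lower and 1290 higher in SCI, and 1738 were lower and 1104 higher with each array centred on its median. SCI 3, sham 1 and sham 2 stood apart on the second principal component (-17.18, -12.62 and -12.80, against 4.53 to 14.79 for the other arrays). Results are therefore also given without these 3. The labels name each array as a separate sample but tie none to a numbered animal. The p-values therefore weigh group differences against the spread between arrays, whose link to single animals is not stated.

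Injured cord had less signal for alpha subunits Scn1a and Scn2a and for beta subunits Scn2b and Scn4b. These 4 of the 6 subunits fell at an adjusted p under 0.05, and 0 rose (also 0 at an unadjusted p under 0.05), where 7.06% of all genes fell and 7.1% rose by the same limma test. Scn1a fell most, to 53.1% of its sham signal, and Scn2b least of the 4, to 76.0%. Scn9a and Scn3b did not pass the test. The median difference was -0.45 over the 6 subunits and -0.01 over all genes. When each array was scaled to the mean of its neuronal genes, the difference of Scn1a kept its sign and its call. That of Scn4b kept its sign without passing, and those of Scn2a, Scn9a, Scn2b and Scn3b were above 0 without passing. By that scaling 74.2% of all genes were called higher, so its adjustment was milder than that for the values as deposited. The tissue was whole cord, where fewer neurons and less RNA in each neuron cannot be told apart.

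**Figure D1:**
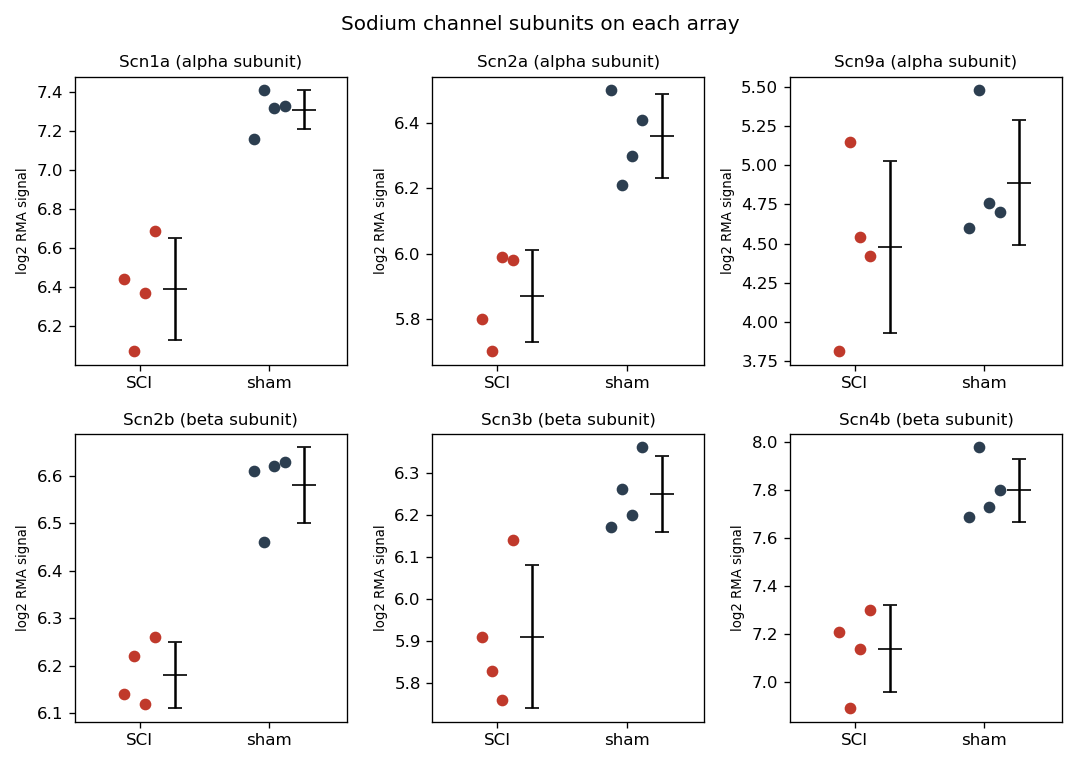
Log2 RMA signal of the 6 subunits on each array (points), with the group mean and SD (bar and whiskers, n = 4), SCI at the left and sham at the right of each panel. Every SCI array lies below every sham array for Scn1a, Scn2a, Scn2b, Scn3b and Scn4b, and the groups overlap for Scn9a. The vertical scale differs between panels and does not start at 0.

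Scn1a encodes Nav1.1, the alpha subunit of fast-spiking neurons and of many motor and sensory neurons. Its probe set (17772887) read 6.44, 6.07, 6.37 and 6.69 on the SCI arrays, against 7.16, 7.41, 7.32 and 7.33 on the sham arrays. The highest SCI array thus lay 0.47 below the lowest sham array, and the SCI arrays were spread more widely than the sham arrays. The means were 6.39 ± 0.26 in SCI and 7.31 ± 0.10 in sham (SD, n = 4 each), a difference of -0.91 (SE 0.13, 95% interval -1.20 to -0.62, limma adjusted p = 0.0013). By size it was the 44th of the 1282 genes that fell, and 0.253% of all genes had a more negative difference. Without SCI 3, sham 1 and sham 2 the difference was -0.93 (limma adjusted p = 0.040).

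Scn2a encodes Nav1.2, which is found along unmyelinated axons and at the initial segment. Its probe set (17762445) read 5.80, 5.70, 5.99 and 5.98 in SCI, against 6.50, 6.21, 6.30 and 6.41 in sham. The groups did not overlap, with a gap of 0.22 between them. The difference of -0.49 (SE 0.11, 95% interval -0.73 to -0.25) put SCI at 71.3% of sham, with means of 5.87 ± 0.14 in SCI and 6.36 ± 0.13 in sham (SD, n = 4 each; limma adjusted p = 0.012). The call was lost without SCI 3, sham 1 and sham 2 (-0.53, limma adjusted p = 0.070) and with the second number of the sample titles, whose meaning is not stated, as covariate (-0.49, limma adjusted p = 0.056). These numbers were 4, 6, 7 and 8 in SCI and 5, 9, 10 and 11 in sham, so the covariate partly tracks the group.

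Scn9a encodes Nav1.7, the channel of pain-sensing primary neurons, whose axons end in the dorsal horn. Its probe set (17772920) read 3.81, 5.15, 4.54 and 4.42 in SCI, against 4.60, 5.48, 4.76 and 4.70 in sham. The groups overlapped, with SCI 1 lowest and SCI 2 highest in the injured group and sham 2 highest in the sham group. The difference of -0.41 (SE 0.27, 95% interval -1.0 to 0.18) did not pass (limma adjusted p = 0.38). It was -0.19 without SCI 1, -0.63 without SCI 2 and -0.21 without sham 2. Its mean level over the 8 arrays was near the median gene of the array, at the 49.1th percentile. Of 6 tested markers of primary sensory neurons, 0 passed the limma test in either direction (1, higher, at an unadjusted p under 0.05). Their mean level was 4.01 to 4.29 on SCI arrays and 3.88 to 4.19 on sham arrays, below the median gene level of 4.74. A change in the dim ones would be hard to see. Calca, the precursor of the peptide CGRP, differed by 0.02 (SE 0.21) and Trpv1, the capsaicin receptor, by 0.05 (SE 0.12).

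Among the beta subunits, Scn4b fell most. Scn4b encodes the beta4 subunit, which joins alpha subunits through a disulphide bond and supports resurgent current. Its probe set (17843753) read 7.21, 6.89, 7.14 and 7.30 in SCI, against 7.69, 7.98, 7.73 and 7.80 in sham. The SCI arrays all lay at least 0.39 below the sham arrays. The means were 7.14 ± 0.18 in SCI and 7.80 ± 0.13 in sham (SD, n = 4 each), a difference of -0.66 (SE 0.11, 95% interval -0.92 to -0.41, limma adjusted p = 0.0036), or 63.1% of the sham signal. Without SCI 3, sham 1 and sham 2 the difference was -0.63 (limma adjusted p = 0.063).

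Scn2b encodes beta2, the other subunit that is linked to alpha by a disulphide bond. Its probe set (17843747) read 6.14, 6.22, 6.12 and 6.26 in SCI, against 6.61, 6.46, 6.62 and 6.63 in sham. These were the narrowest groups of the 6 subunits, with SDs of 0.07 in SCI and 0.08 in sham. The means of 6.18 in SCI and 6.58 in sham (n = 4 each) differed by -0.40 (SE 0.09, 95% interval -0.59 to -0.20, limma adjusted p = 0.014). The call was lost without SCI 3, sham 1 and sham 2 (-0.42, limma adjusted p = 0.087) and with the title number as covariate (-0.38, limma adjusted p = 0.070).

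Scn3b encodes beta3, a subunit that binds alpha without a covalent bond. Its probe set (17843434) read 5.91, 5.83, 5.76 and 6.14 in SCI, against 6.17, 6.26, 6.20 and 6.36 in sham. The groups did not overlap, but only 0.02 lay between SCI 4 and sham 1. Its difference of -0.34 (SE 0.11, 95% interval -0.57 to -0.10) missed the threshold (limma adjusted p = 0.061), and without SCI 4 it passed (-0.41, limma adjusted p = 0.022). It also passed with arrays centred on their medians (-0.39, limma adjusted p = 0.034). Groups without overlap and lower in SCI were seen for 5 of the 6 subunits and for 10.9% of all genes. For each of the 5 the exact two-sided permutation test gave p = 0.029, the smallest that 4 arrays against 4 allow, before any adjustment.

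Scn2b and Scn4b are direct neighbours on the same strand in the RefSeq annotation of rat build GRCr8, with no protein-coding gene between them. The bases before their starts are shown because these adjacent genes differ there in base composition. Whether this bears on their signal was not tested. The 250 bases upstream of each start come from RefSeq, 5′ to 3′ on the plus strand, with CG dinucleotides in capitals.
Scn2b (chr8:54322133-54322382): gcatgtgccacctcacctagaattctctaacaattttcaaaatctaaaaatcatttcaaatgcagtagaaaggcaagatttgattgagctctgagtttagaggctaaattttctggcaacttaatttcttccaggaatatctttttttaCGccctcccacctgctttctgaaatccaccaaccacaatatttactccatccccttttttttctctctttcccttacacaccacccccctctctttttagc
Scn4b (chr8:54343623-54343872): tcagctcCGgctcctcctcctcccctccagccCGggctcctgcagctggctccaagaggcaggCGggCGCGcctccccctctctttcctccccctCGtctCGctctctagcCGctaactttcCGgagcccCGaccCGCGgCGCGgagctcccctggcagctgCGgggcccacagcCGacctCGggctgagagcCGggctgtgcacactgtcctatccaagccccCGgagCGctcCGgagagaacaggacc
The Scn2b window held 38.8% G and C and 1 CG, and the Scn4b window held 71.6% and 21. The median over 33469 promoters of this length was 51.2% with 5 CG. Of the 6 subunits, 4 had an entry in the promoter table. The binding element of REST, a repressor of neuronal genes in non-neuronal cells, was searched on both strands by its left part TCAGCACC and its right part GGACAG, which do not overlap each other. The left part was in 0 of the 4 windows and in 1.25% of all promoters. The right part was in 1 of the 4, that of Scn4b, and in 18.2% of all. Counts in 4 windows are too few to set apart from these shares. Bases outside these windows were not searched, so an element elsewhere near these genes would not be seen. The next coding genes on either side did not pass the test. Jaml, before Scn2b, had 0.35 (SE 0.17, limma adjusted p = 0.23), and Tmprss4, after Scn4b, had 0.08 (SE 0.15, limma adjusted p = 0.79).

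The alpha subunit genes of the set lie in 1 cluster, with some other genes among them, and neighbours there differed in direction. In RefSeq order, Scn1a is followed by Scn9a and then by Scn7a, an atypical sodium channel of glia and Schwann cells that responds to sodium concentration rather than voltage. Scn7a (probe set 17772949) read 6.41, 6.57, 6.59 and 5.93 in SCI, against 4.97, 5.18, 5.30 and 5.04 in sham. All SCI arrays were higher, and the difference of 1.25 (SE 0.15, 95% interval 0.92 to 1.58, limma adjusted p = 4.7e-04) was a 2.38-fold rise. Thus Scn1a fell, Scn7a rose and Scn9a between them did not pass the test. Ttc21b, a ciliary transport gene on the other side of Scn1a, had -0.03 (SE 0.14). The alpha genes resemble each other in sequence and the probe positions were not used here, so a part of one gene's signal could come from another.

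Of 6 further tested genes of the family, 1 fell, 1 rose and 4 did not pass. Scn8a encodes Nav1.6, the main alpha subunit of adult nodes of Ranvier. It read 7.57, 7.29, 7.47 and 7.60 in SCI, against 8.14, 8.39, 8.10 and 8.06 in sham. The groups did not overlap, and Scn8a fell by 0.69 on the log2 scale (SE 0.11, limma adjusted p = 0.0024), and had -0.60 without SCI 3, sham 1 and sham 2 (limma adjusted p = 0.058). Nalcn, the sodium leak channel, averaged 6.08 ± 0.08 in SCI and 6.34 ± 0.05 in sham (SD, n = 4 each) without passing (-0.25, limma adjusted p = 0.083). The muscle channel Scn4a had -0.17 (SE 0.10), and the sensory neuron channels Scn10a and Scn11a had 0.41 (SE 0.28) and 0.10 (SE 0.21). These 3 were dim, with group means between 2.39 and 2.99, so a change would be hard to see.

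Whether subunits changed by unequal amounts was tested on the difference of 2 subunits within each array, for 3 pairs of alpha and 3 pairs of beta subunits. Shifts between the beta subunits did not pass after adjustment. Scn2b minus Scn4b averaged -0.95 ± 0.19 in SCI and -1.22 ± 0.20 in sham (SD, n = 4 each), a shift of 0.27 (exact permutation p = 0.029, 0.086 adjusted over the 6 pairs). Scn3b minus Scn4b averaged -1.23 ± 0.15 in SCI and -1.56 ± 0.12 in sham (SD, n = 4 each), a shift of 0.33 (exact permutation p = 0.029, 0.086 adjusted). With 1 array left out at a time, the unadjusted p of Scn2b minus Scn4b was 0.057 to 0.11 in 6 of 8 cases (shifts of 0.17 to 0.31, 0.17 without SCI 2 and without sham 2), and 0.086 with quantile normalization (shift 0.23). That of Scn3b minus Scn4b was 0.057 without any 1 of the 4 sham arrays (exact permutation tests). Scn2b and Scn3b were not told apart (shift -0.06, exact permutation p = 0.49, 0.58 adjusted). Scn1a minus Scn2a averaged 0.52 ± 0.18 in SCI and 0.95 ± 0.22 in sham (SD, n = 4 each), a shift of -0.42 (exact permutation p = 0.057, 0.11 adjusted). With 1 array left out at a time the shift was -0.52 to -0.34, and the exact permutation p was 0.057 to 0.11 in 7 of 8 cases and 0.029 without sham 1. The pairs with Scn9a had shifts of -0.50 for Scn1a and -0.08 for Scn2a (exact permutation p = 0.26 and 0.80, adjusted 0.39 and 0.80).

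Neuronal genes fell in the same arrays. Of 19 tested pan-neuronal markers 18 were lower and 0 higher, with a median difference of -0.52, and without SCI 3, sham 1 and sham 2 the number past the test was 2. The mean of the list was 8.53 ± 0.10 in SCI and 9.03 ± 0.05 in sham (SD, n = 4 each). It was 8.56, 8.41, 8.50 and 8.64 on the SCI arrays, against 8.99 to 9.10 on the sham arrays. SCI 2 was lowest and SCI 4 highest of the injured arrays, as for Scn1a and Scn4b. Rbfox3, a splicing factor of neuronal nuclei, fell by 0.61 (SE 0.12, limma adjusted p = 0.0083), and the synaptic genes Syp and Snap25 fell by 0.58 (SE 0.09) and 0.36 (SE 0.09). Snap25 passed with either SCI 4 or sham 4 left out but with no other single array left out (limma adjusted p up to 0.078). The differences of the 19 markers ran from -0.77 to -0.03, a range that holds those of Scn2a, Scn2b and Scn4b but not that of Scn1a. Slc17a6 (-1.04), Glra1 (-0.82) and Kcnc2 (-0.83), of the excitatory, inhibitory and ion channel lists, also lay below that range. The other genes of those lists did not.

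**Figure D2:**
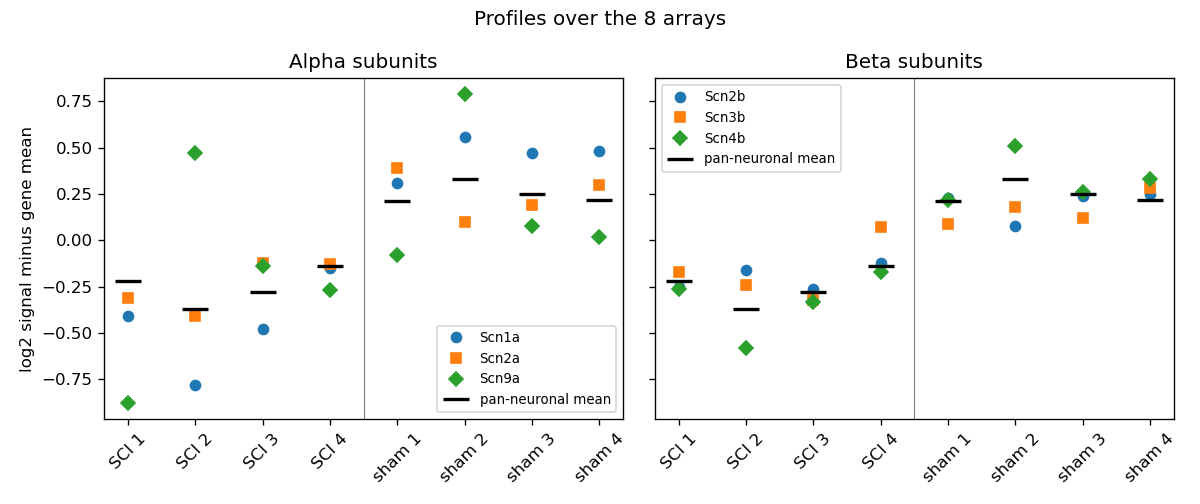
Log2 signal of each subunit minus its own mean over the 8 arrays, with alpha subunits at the left, beta subunits at the right, and black bars for the mean of 19 pan-neuronal markers treated alike. Scn1a lies below the neuronal bar on all 4 SCI arrays, by 0.02 on SCI 4, and above it on all sham arrays. Scn9a is low on SCI 1 and high on SCI 2 and sham 2, and Scn4b departs most from the bar on SCI 2 and sham 2.

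After the pan-neuronal mean was subtracted from each array, Scn1a still fell. It then read 6.65, 6.44, 6.64 and 6.83 in SCI, against 6.95, 7.08, 7.07 and 7.11 in sham. The groups stayed apart, and the difference was -0.41 (SE 0.11, 95% interval -0.66 to -0.16, limma adjusted p = 0.0077). This scaling raises every SCI array relative to sham, so that 0.462% of all genes were lower and 74.2% higher by it. With so many genes past the test, the adjustment over all genes is milder than for the values as deposited. The adjusted p-values of the 2 fits are therefore not equally strict. Scn2a differed by 0.01 (95% interval -0.25 to 0.28), Scn2b by 0.11 (-0.14 to 0.35) and Scn3b by 0.17 (-0.07 to 0.40). Scn9a had 0.09 (95% interval -0.50 to 0.68). Scn4b, at -0.16 (95% interval -0.39 to 0.07, limma adjusted p = 0.17), and Scn8a, at -0.19 (-0.42 to 0.04, limma adjusted p = 0.11), had groups without overlap but did not pass. The relative difference of Scn1a was -0.47 when 19 markers of inhibitory, excitatory and motor neurons took the place of the pan-neuronal list (limma adjusted p = 0.0059), and -0.45 without SCI 3, sham 1 and sham 2 (limma adjusted p = 0.047). It was -0.33 and did not pass with the title number as covariate (limma adjusted p = 0.057). These checks of the relative value were chosen after seeing the data.

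**Figure D3:**
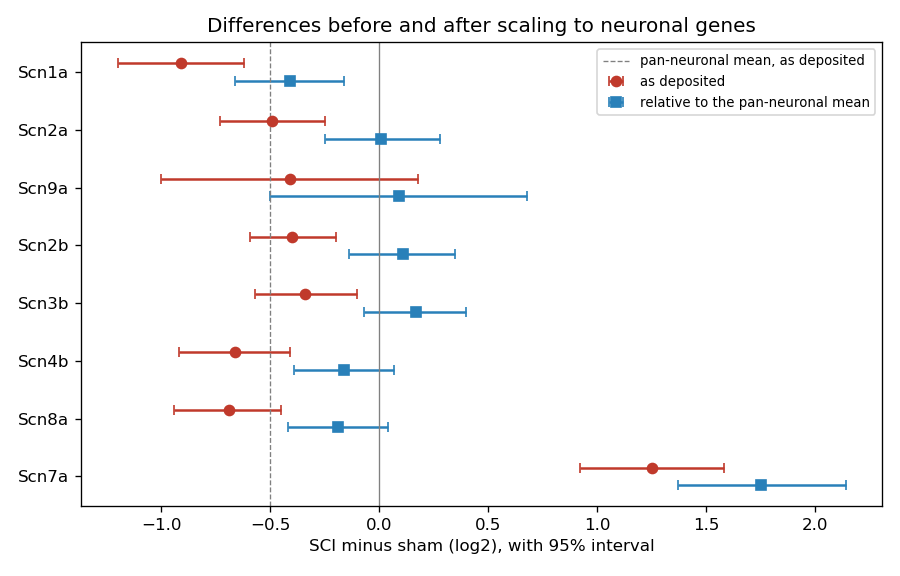
Difference SCI minus sham on the log2 scale with its 95% interval for the 6 subunits, Scn8a and Scn7a, as deposited (circles) and relative to the pan-neuronal mean (squares). The dashed line marks the difference of the pan-neuronal mean as deposited, -0.50. Relative to it Scn1a stays below 0 and Scn7a above 0, and the other intervals include 0.

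Markers of neuron classes were lower too. Of 7 inhibitory markers 5 were lower (median -0.64), among them Gad1, which makes GABA (-0.58, SE 0.10). Of 6 excitatory markers 4 were lower (median -0.55), and of 6 motor and cholinergic markers 1 (median -0.25). Prph and Isl1 are in both the motor list and that of primary sensory neurons, and neither passed the limma test. Slc17a6, the vesicular glutamate transporter of spinal excitatory neurons, fell by 1.04 (SE 0.14), and Chat, which makes acetylcholine, had -0.20 (SE 0.12). After removal of SCI 3, sham 1 and sham 2 the numbers lower were 1 inhibitory, 2 excitatory and 0 motor, and Gad1 had a limma adjusted p of 0.059. Differences between these classes were not tested.

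Markers of other cells moved too. Of 13 macrophage and microglia markers 11 rose, and their mean level was 8.04 to 8.45 on SCI arrays and 6.21 to 6.57 on sham arrays. Cd68 rose by 4.17 (SE 0.14) and Aif1 by 0.98 (SE 0.13). Of 9 mature oligodendrocyte markers 8 fell, with mean levels of 9.10 to 9.36 in SCI and 9.88 to 9.94 in sham. Mbp and Mog, of the myelin sheath, fell by 0.70 (SE 0.09) and 0.78 (SE 0.10). Of 9 precursor markers 3 rose, among them Pdgfra (0.42, SE 0.10, not called without SCI 2, sham 2 or sham 4), and 2 fell, with mean levels of 6.92 to 6.96 in SCI and 6.76 to 6.93 in sham. Of 9 astrocyte markers 2 rose and 1 fell, with mean levels of 8.96 to 9.03 in SCI and 8.81 to 8.89 in sham. Gfap rose by 0.81 (SE 0.09), and Aqp4 had 0.20 (SE 0.10). Slc1a2, the astrocyte marker that fell, had -0.39 (SE 0.11) and lost its call in 6 of the 8 fits with 1 array left out. Of 9 vessel and fibroblast markers 3 rose, Col1a1 by 0.93 (SE 0.17; limma adjusted p = 0.080 after removal of the 3 arrays that stood apart), with mean levels of 6.88 to 7.24 in SCI and 6.43 to 6.90 in sham. Of 9 Schwann cell and peripheral myelin markers 3 rose and 2 fell, with mean levels of 6.23 to 6.50 in SCI and 5.89 to 6.13 in sham. Pmp22, a protein of peripheral myelin, rose by 0.83 (SE 0.11). The other called genes of that list, chosen after their values were seen, were Ncmap (0.91, SE 0.13) and Gldn (0.53, SE 0.13), which rose, and Mal (-0.50, SE 0.10) and Sox10 (-0.34, SE 0.08), which fell. Sox10 is also in the precursor list and was counted as lower in both. Gldn was not called without SCI 1, SCI 2 or sham 4, nor Sox10 when any of SCI 2, SCI 3, sham 3 and sham 4 was removed. After removal of SCI 3, sham 1 and sham 2 the counts were 10 higher for macrophages and microglia, 6 lower for oligodendrocytes, 0 for precursors, 1 higher for astrocytes, 1 higher for vessels and fibroblasts and 2 higher for Schwann cells, with 0 in the other direction in each list. The part of these cells in the differences of the subunits was not tested.

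Genes whose proteins bind, place or modify sodium channels fell in part. Of 23 tested genes 8 were lower and 1 higher (median -0.07), and without SCI 3, sham 1 and sham 2 the numbers were 3 and 0. The 4 fibroblast growth factor homologous factors, which bind the tail of the alpha subunit and set its inactivation, were all lower. Fgf12 averaged 7.19 ± 0.20 in SCI and 7.89 ± 0.12 in sham (SD, n = 4 each; -0.70, limma adjusted p = 0.0032), and Fgf11, Fgf13 and Fgf14 had -0.56, -0.50 and -0.56. Fgf13 passed with either SCI 2 or sham 1 left out but with no other single array left out (limma adjusted p up to 0.085). Without SCI 3, sham 1 and sham 2, Fgf12, Ank3 and Map1b stayed past the test (limma adjusted p = 0.039, 0.048 and 0.042). Ank3 encodes ankyrin-G, which anchors channels at initial segments and nodes. It averaged 7.40 ± 0.13 in SCI and 7.99 ± 0.03 in sham (SD, n = 4 each; -0.59, limma adjusted p = 0.0025). Its partners at the same sites, Nfasc, Nrcam and Sptbn4, had -0.07, -0.03 and -0.04 and did not pass (chosen after their values were seen). Sptbn4 was dim, with means of 3.68 in SCI and 3.72 in sham (SE of the difference 0.17), so a change would be hard to see. Map1b, a microtubule-associated protein, fell by 0.66 (SE 0.10), Dpysl2 fell by 0.43 (SE 0.09), and Bace1, a protease that cleaves beta2, fell by 0.42 (SE 0.08). S100a10, an annexin partner known to help bring a sensory sodium channel to the membrane, rose by 0.53 (SE 0.12, limma adjusted p = 0.017), but lost its call without SCI 2 and with the title number as covariate.

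Other ion channels of neuronal excitability fell as well. Of 11 tested potassium, HCN and calcium channel genes 7 were lower and 0 higher (median -0.44), and the number lower was 4 without either SCI 2 or sham 4, and 2 when SCI 3 and both of sham 1 and sham 2 were left out. Kcnc2, a potassium channel of fast-spiking neurons, read 5.73, 5.51, 5.69 and 5.65 in SCI, against 6.59, 6.37, 6.47 and 6.47 in sham. It fell by 0.83 (SE 0.09, limma adjusted p = 3.4e-04), with groups far apart. Kcnq3, of the M current, fell by 0.63 (SE 0.10), Hcn2, a pacemaker channel, by 0.62 (SE 0.12), and Kcnc1 by 0.61 (SE 0.13). The juxtaparanodal channels Kcna1 and Kcna2 fell by 0.64 (SE 0.15) and 0.34 (SE 0.09), and Kcnd2 fell by 0.44 (SE 0.11). These 3 calls hung on single arrays: that of Kcna1 was lost by leaving out SCI 2, sham 3 or sham 4, that of Kcnd2 by leaving out SCI 2 or any sham array but sham 3, and that of Kcna2 by leaving out any array other than SCI 4 (limma adjusted p up to 0.057, 0.070 and 0.094). Kcnc2 and Kcnq3 stayed past the test without SCI 3, sham 1 and sham 2 (limma adjusted p = 0.017 and 0.042). The calcium channel genes Cacna1a, Cacna1b, Cacna1c and Cacna1e, chosen after their values were seen, had -0.18, -0.16, -0.20 and -0.41 and did not pass.

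**Figure D4:**
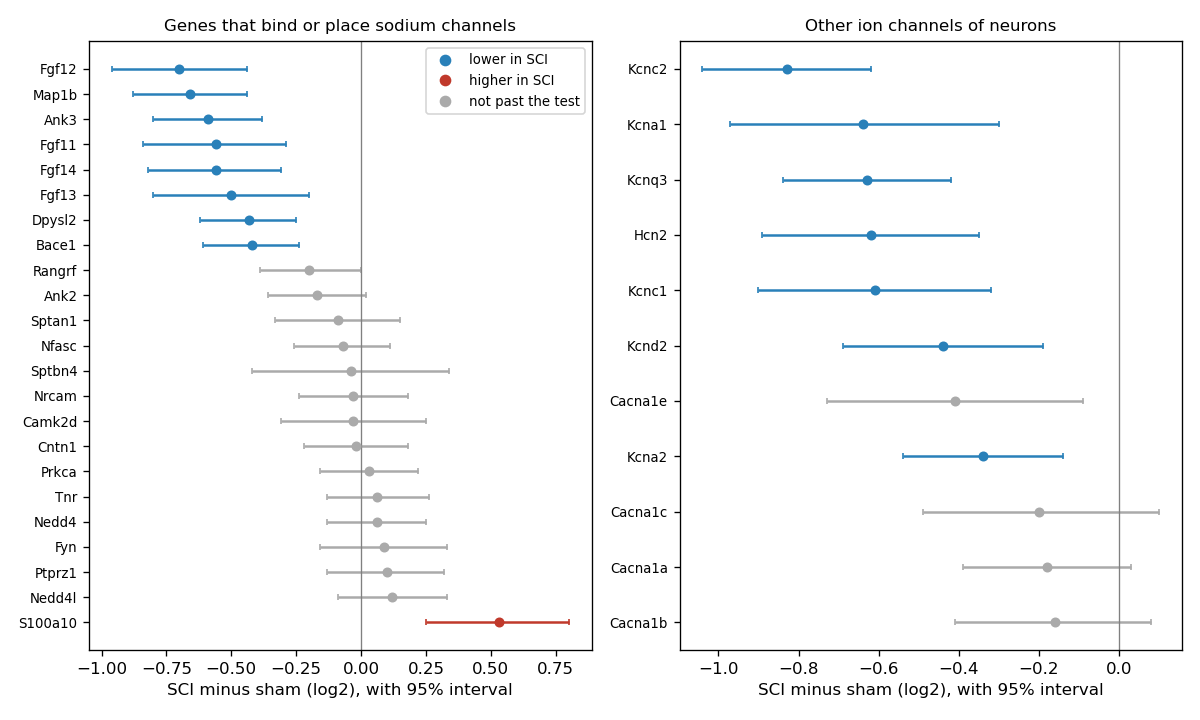
Difference SCI minus sham on the log2 scale with its 95% interval for 23 genes that bind or place sodium channels (left) and 11 other ion channel genes (right), coloured by the limma call. At the left, 8 genes are lower and S100a10 is higher; at the right, 7 are lower and the 4 calcium channel genes are not past the test.

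The genes most like each subunit over the 8 arrays were found by the root-mean-square difference after each gene was centred on its own mean, among 16343 genes. Scn1a lay nearest to Slc17a6 (0.075) and to Htr2c, a serotonin receptor (0.078), which itself differed by -0.78 (limma adjusted p = 0.0042). Scn2a lay nearest to Wdtc1 (0.052) and Ppp1r16b (0.059). Scn2b lay nearest to Bms1 (0.033) and Bace1 (0.038). Scn3b lay nearest to the glutamate transporter Slc1a2 (0.030), a gene of the astrocyte list, and to the mitochondrial fission gene Dnm1l (0.037). Scn4b lay nearest to the neural adhesion gene Cntn6 (0.046) and Arhgap44 (0.050). Scn9a had no close match, with Gpr61 (0.227) and Cacng5 (0.233) as its nearest genes. A small value means that the centred signals of the 2 genes differed little over these arrays.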

How the data were processed

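The authors deposited log2 signals of 36685 probe sets on 8 Affymetrix arrays, made with Affymetrix Expression Console and RMA, per the submitters' processing notes. No version, setting, probe library or genome build is given in the sources used here, and the log2 base was taken from RMA and the range of the deposited values. The annotation gave 1 symbol to 18511 probe sets, several to 575 and none here to 17599. The probe set with the highest mean was kept for each of 18166 genes, with no filter on low values. The contrast SCI minus sham was fitted without covariate by limma 3.58.1 (lmFit, eBayes) under R 4.3.3, with Benjamini-Hochberg adjustment over all genes and calls at 0.05. The fit was also run on simulated data. There it called 25% of genes changed by 0.5 on the log2 scale and 89% of those changed by 1. Changes of the smaller size can therefore be missed. Far fewer genes were changed in the simulation than were called in the real data, which makes the adjustment stricter. These shares need not hold for the real data. The number of arrays limits the precision. The subunits and the lists, with 167 genes in all, were chosen with earlier results of these data known. Named genes were the subunits, all further family genes, called partners and channels or the 3 with the smallest p of each, fixed cell markers, and the 2 nearest genes of each subunit. Scn3a and some fixed markers were not analysed here, so 6 pairs of subunits were compared in place of 9. Alternatives were other scalings, filters, weights and probe set rules, a covariate, and arrays left out.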

Additional observations from a re-analysis of the deposited data

Results flagged for a closer look

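In the sham group Scn2b read 6.46 on sham 2, while the other sham arrays read 6.61 to 6.63, a gap that is large for a group of 4 (Dixon ratio 0.898 against a critical value of 0.829). It was 1 of 24 groups examined, 12 genes in SCI and in sham, and chance marks about 1 group in 20. Without sham 2 the difference of Scn2b was -0.44 (limma adjusted p = 0.017).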

How the results depend on the processing

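No paired analysis was possible because the labels give SCI and sham 0 replicate numbers in common. Scn1a kept its direction and call in all 16 alternatives of scaling, filter, features tested, weights, covariate and arrays left out (-1.01 to -0.81). Scn2a and Scn2b kept them in 14 of 16 and Scn4b in 15 of 16. Averaging the probe sets of a gene is not counted, since each subunit has 1. With the title number as covariate Scn2a (-0.49) and Scn2b (-0.38) lost their calls, which left 2 subunits lower, and 543 of all genes were lower and 813 higher. Without SCI 3, sham 1 and sham 2, Scn2a (-0.53), Scn2b (-0.42) and Scn4b (-0.63) lost theirs, which left 1 subunit lower, with 284 of all genes lower and 563 higher in a fit of fewer arrays. With all probe sets tested, 639 genes were lower and 802 higher, and 4 subunits lower. Scn3b passed with arrays centred on their medians (-0.39), without dim genes (-0.34), with trended and robust variances (-0.34), with array weights (-0.35) and in the unadjusted permutation test (-0.34), which made 5 subunits lower in the first 4 of these, where 1738, 1814, 1751 and 1423 of all genes were lower against 1282. Relative to the pan-neuronal mean Scn2a (0.01), Scn2b (0.11), Scn9a (0.09) and Scn3b (0.17) changed sign and Scn4b (-0.16) lost its call, and the relative value of Scn1a was -0.33 with the covariate. Leaving out 1 array at a time gave -0.54 to -0.43 for Scn2a, -0.44 to -0.38 for Scn2b, -0.41 to -0.28 for Scn3b, -0.72 to -0.58 for Scn4b and -0.47 to -0.34 for the relative value of Scn1a. It gave 4 to 5 subunits lower, and 780 to 1283 genes lower (780 without SCI 2 and 838 without sham 4) and 923 to 1257 higher. The pan-neuronal markers past the test numbered 9 with the covariate and 12 to 16 with 1 array left out. The shift of Scn2b against Scn4b was 0.17 to 0.32 and that of Scn3b against Scn4b 0.27 to 0.38 with 1 array left out, and with SCI 3, sham 1 and sham 2 left out the permutation test cannot reach the threshold. Scn9a is below the median gene level and had no value without dim genes, and no subunit had another probe set to test alone. The causes were not tested.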
